A study of Mus musculus with 18 samples.

Results

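The comparison described here is that of a fucose diet with a control diet in the brain of 5xFAD mice, across all genes of a table of normalized read counts. It uses 12 of the 18 libraries of the series, 6 from 5xFAD mice on the fucose diet and 6 from 5xFAD mice on the control diet, and the 6 libraries of WT mice were not used here. Both diets were given for 1 month. RNA was selected by its poly(A) tail and sequenced from randomly primed cDNA.

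Every library of both groups carries the 5xFAD genotype, so the effect of the genotype itself is not part of the comparison. The 5xFAD line expresses mutant human genes that cause familial Alzheimer's disease, driven by elements of the mouse Thy1 gene in neurons, and accumulate amyloid at an early age. The transgenes were not measured on their own here, because a mouse genome is the only build named. The labels name the tissue as brain without a region, and no sex, age, batch or dose of fucose is stated. Whether libraries come from separate animals is not stated either. The p-values therefore measure only the spread between these libraries, and how much of it is technical is not known.

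Fucose is a deoxyhexose that cells attach to the glycans of glycoproteins and glycolipids. Cells make the activated sugar, GDP-fucose, either from GDP-mannose or by salvage of free fucose through fucokinase, and transporters carry it into the Golgi apparatus for the fucosyltransferases. In neurons fucosylated glycoproteins are abundant at synapses, and fucose set on epidermal growth factor-like repeats is needed for signalling by Notch receptors.

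The libraries held between 33.9 and 43.85 M reads assigned to genes, with a median of 38.72 M. A single read was worth 0.887 to 1.11 normalized counts, and a count of 0 allows 3 reads, or 2.66 to 3.34 normalized counts, for counting error only. Defining markers of neurons, astrocytes, oligodendrocytes, microglia and endothelium were present in all 12 libraries. Neuron markers had a mean log2 level of 13.98 to 14.26 on the control diet and 14.09 to 14.25 on the fucose diet. Of the cerebellar markers, Gabra6 and Pcp2 were too low to be tested. In each diet the library numbered 5 had almost no Xist, which coats the inactive X chromosome, with 6.60 normalized counts on the control diet and 0 on the fucose diet, where 0 allows up to 2.95, against at least 7251 in every other library.

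No gene passed the threshold between the diets at an adjusted p under 0.05. limma tested 18146 genes with Benjamini-Hochberg adjustment and called 0 of them (0%), with a smallest adjusted p of 0.723. At an unadjusted p under 0.05 there were 1226 genes (6.76%), of which 543 (2.99%) were higher and 683 (3.76%) were lower on fucose. The other tools run called 0 genes as well: edgeR had 1182 genes with TMM and 1173 with RLE factors, DESeq2 had 1270 and voom had 1236 at an unadjusted p under 0.05. The libraries of both diets did not overlap for 31 genes (0.171%), 10 of them higher (0.0551%) and 21 lower (0.116%) on fucose.

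The size of difference that these libraries leave room for can be read from the 95% intervals of the fold changes. For 11677 of the 18146 genes (64.4%) the whole interval lay within 1.5-fold in either direction, and for 14794 (81.5%) it lay within 2-fold. The median SD within a diet was 0.235 on the log2 scale, and the median distance from a fold change to the end of its interval was 0.28. A total of 260 genes had a log2 fold change beyond 1 in either direction, and 36 of them had a mean of at least 1 CPM. Because brain tissue was sequenced in bulk, fewer cells of a type and less RNA per cell cannot be told apart in any value given here. Log2 fold changes are fucose minus control diet on the scale of log2(normalized count + 1) throughout, so they understate differences of low genes.

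The genes that handle fucose itself had log2 fold changes close to 0 with narrow intervals. All 9 genes of fucose supply and breakdown were tested, 0 were called, their median log2 fold change was -0.028 against -0.005 for all tested genes, and all 9 intervals lay within 1.5-fold. Fuk, the fucokinase that starts the salvage of free fucose (chr8:110882463-110902459, minus strand, mm10), had 859.8, 924.6 and 964.1 normalized counts as lowest, median and highest on the control diet. On the fucose diet Fuk had 791.4, 922.6 and 1000.38 normalized counts. The diets overlapped over almost their whole range, and the fold for Fuk was 0.981 with a 95% interval of 0.869 to 1.11 (limma, unadjusted p = 0.74). Fpgt, which joins fucose 1-phosphate to GDP in the next step of salvage, had a fold of 1.01 with an interval of 0.868 to 1.17.

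The route from GDP-mannose gave values of the same size. Gmds, the dehydratase that opens this route, had a fold of 0.982 with an interval of 0.801 to 1.20. Tsta3, which completes it, had a fold of 0.917 with an interval of 0.790 to 1.06. Per transcript length Tsta3 was the most abundant of these 4 enzymes, at 35.05 TPM on the control diet and 33.45 on fucose, against 11.9 and 12.2 for Fuk. Slc35c1, the GDP-fucose transporter of the Golgi apparatus, had a log2 fold change of 0.07, and its relative Slc35c2 had -0.09. Fuom, which interconverts the forms of free fucose, had -0.10.

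Fuca1, the lysosomal fucosidase that removes fucose from glycans (chr4:135920735-135940311, plus strand), was the single gene of this list at an unadjusted p under 0.05. It had 2315, 2679 and 2860 normalized counts as lowest, median and highest on the control diet and 1943, 2445 and 2491 on fucose. The log2 fold change was -0.18 ± 0.0824 (SE; limma, unadjusted p = 0.0381). Fucose 6 and fucose 2 were the lowest libraries, and the other 4 fucose libraries lay within the control range. With an index of transcript length, described further on, as a covariate the value for Fuca1 was -0.06 (unadjusted p = 0.437). Scores of striatal and thalamic-hypothalamic markers as covariates gave -0.22 (limma, unadjusted p = 0.0201). Fuca2, the secreted fucosidase, had 0.03.

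**Figure D1:**
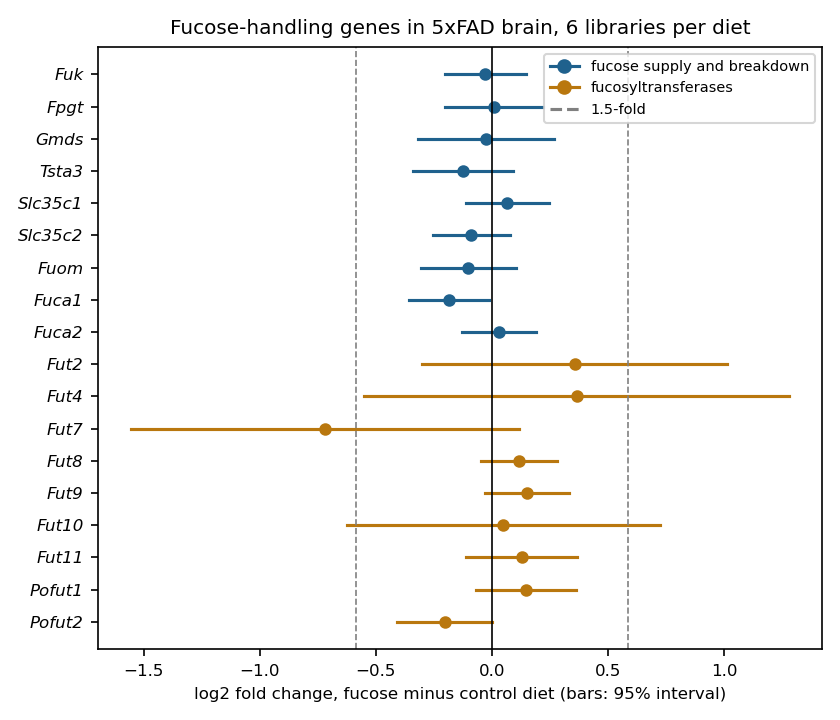
Log2 fold change (fucose minus control diet, horizontal axis) of the 18 tested fucose-handling genes, with points for the estimate and bars for its 95% interval over 6 libraries per diet; dashed lines mark 1.5-fold. The 9 genes of supply and breakdown lie inside these lines, and wide bars belong to the low genes Fut2, Fut4, Fut7 and Fut10.

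Of 10 fucosyltransferase genes 9 were tested and 0 were called, 7 had positive and 2 negative log2 fold changes, the median was 0.128, or 0.053 with the length index as a covariate, and 5 intervals lay within 1.5-fold. Fut1 was not tested, with a median of 0 normalized counts on the control diet and 2.09 on fucose, below what a count of 0 allows. Fut9, which makes the Lewis x epitope on brain glycans (chr4:25609332-25800244, minus strand), had 1715, 2324 and 2455 normalized counts on the control diet and 2168, 2487 and 2619 on fucose. Control library 1 was low and the other 11 libraries overlapped, for a fold of 1.11 with an interval of 0.979 to 1.26 (limma, unadjusted p = 0.099). Fut8, which sets core fucose on N-glycans (chr12:77238104-77476338, plus strand), had a fold of 1.08 with an interval of 0.967 to 1.22. At 15.01 TPM for Fut8 and 13.1 for Fut9 on the control diet, these 2 genes stood above Fut11, Fut10, Fut7, Fut2 and Fut4 per transcript length.

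Fut7, best known for building selectin ligands in leukocytes, had the log2 fold change farthest from 0 in the list, on few reads. It had 13.3, 40.5 and 57.8 normalized counts as lowest, median and highest on the control diet and 13.8, 19.9 and 26.5 on fucose. Control libraries 2 and 6 were as low as the fucose libraries, and the other 4 control libraries were above all of them. The log2 fold change of Fut7 was -0.72 ± 0.399 (SE; limma, unadjusted p = 0.0873). Pofut2, which adds O-fucose to thrombospondin repeats, had -0.20 (unadjusted p = 0.052), and Pofut1, which adds O-fucose to Notch receptors, had 0.15 (unadjusted p = 0.172). Pofut2 had -0.08 (unadjusted p = 0.434), Pofut1 had 0.03, Fut8 had 0.05 and Fut9 had 0.09 with the length index as a covariate.

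Notch genes were described because their receptors carry O-fucose. All 22 genes of the list were tested and 0 were called, with a median log2 fold change of 0.031. The pair at an unadjusted p under 0.05 were both receptors and both higher on fucose. Notch1 (chr2:26457903-26516663, minus strand) had 282.0, 449.3 and 526 normalized counts on the control diet and 478.3, 589.0 and 916.4 on fucose. The diets overlapped, with fucose 6, fucose 1 and fucose 2 high and control 6 low, and the log2 fold change was 0.53 ± 0.178 (SE; limma, unadjusted p = 0.00806). With the length index as a covariate it was 0.23 (unadjusted p = 0.176). Notch4, a receptor of blood vessels, had 0.35 (unadjusted p = 0.0471), and 0.36 with that covariate (unadjusted p = 0.0941). The targets that Notch signalling induces had values on both sides of 0: Hes1 -0.26, Hes5 -0.36, Hey1 -0.09, Hey2 0.23 and Nrarp 0.13. Adjusted for the length index, Hes1 had -0.14, Hes5 had -0.08 and Hey2 had 0.08.

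Among the glycan genes outside fucose handling 0 were called. The N-glycan branching and sialylation genes had a median of 0.037, with 18 of 22 above 0 and Man2a2, a trimming mannosidase, at 0.24 (unadjusted p = 0.0154). St8sia1, which makes the ganglioside GD3, had 0.22 (unadjusted p = 0.0453). The other nucleotide-sugar enzymes had a median of -0.022 over 19 genes. Nagk, which phosphorylates N-acetylglucosamine, had -0.20 (unadjusted p = 0.0339). Adjusting for the length index gave 0.09 for Man2a2 (unadjusted p = 0.265), 0.04 for St8sia1 (unadjusted p = 0.669) and -0.13 for Nagk (unadjusted p = 0.184).

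The smallest unadjusted p of all genes belonged to Bcl3, a nuclear partner of NF-kB p50 (chr7:19808462-19822770, minus strand). It had 176.0, 244.5 and 339.2 normalized counts as lowest, median and highest on the control diet and 79.6, 120.4 and 209.3 on fucose. Only fucose 4 lay within the control range, and fucose 5 was the lowest library. The fold was 0.519 with a 95% interval of 0.381 to 0.709 (limma, unadjusted p = 0.000309, adjusted p = 0.723). Tnfaip3, an NF-kB target that encodes an inhibitor of NF-kB, was chosen after its values were seen. It had 158.8 to 197.9 normalized counts on the control diet and 107.2 to 155.9 on fucose, with no overlap. Over all tested genes the diets did not overlap for 0.171%. No other NF-kB target is given here, so Tnfaip3 does not describe NF-kB targets as a group.

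Next came Lpl, lipoprotein lipase, which splits triglycerides and is made by amyloid-associated microglia as well as by some neurons (chr8:68880491-68907448, plus strand). Its normalized counts were 1484, 1586 and 1885 on the control diet and 1084, 1253 and 1430 on fucose. Every fucose library was below every control library, with control 6 the highest of all. The fold was 0.776 with an interval of 0.683 to 0.883 (limma, unadjusted p = 0.000587).

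Lgals3, galectin-3, a sugar-binding lectin of activated microglia (chr14:47367751-47386160, plus strand), had a like separation. It had 279.5, 318.0 and 329.2 normalized counts on the control diet and 191.5, 217.8 and 271.6 on fucose. Again the diets did not overlap, with fucose 4 nearest to the control libraries. The fold was 0.705 with an interval of 0.584 to 0.853 (limma, unadjusted p = 0.00108). S100a6, a calcium-binding protein of astrocytes and other glia, had 1010 to 1267 normalized counts on the control diet and 723.2 to 1110 on fucose, with a log2 fold change of -0.40 (unadjusted p = 0.0012).

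The values of Bcl3, Lpl and Lgals3 moved little under the alternatives that took transcript length or brain region into account. With the length index as a covariate they were -0.83, -0.42 and -0.48, and with striatal and thalamic-hypothalamic scores as covariates they were -1.01, -0.35 and -0.53. Leaving out each library in turn gave ranges of -1.09 to -0.82 for Bcl3, -0.40 to -0.32 for Lpl and -0.56 to -0.46 for Lgals3. These genes were picked for their p in the same libraries, so such values describe them and are not independent evidence.

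**Figure D2:**
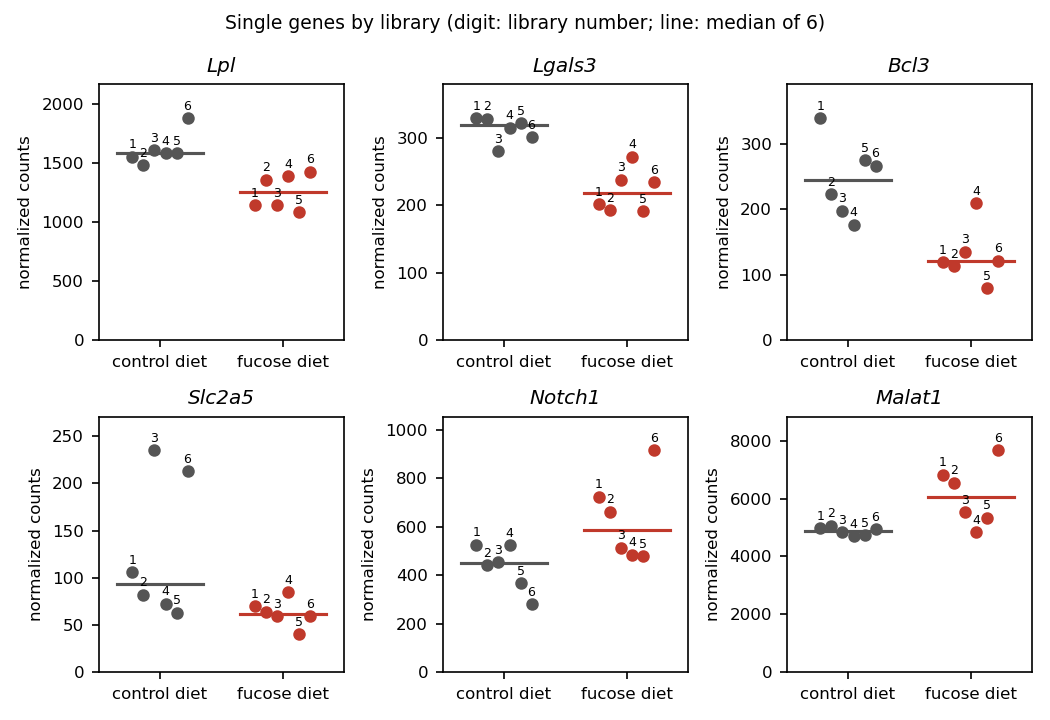
Normalized counts (vertical axis, from 0) of 6 genes in each of the 12 libraries, by diet; each point is 1 library with its number, and the line is the median of 6. Lpl and Lgals3 do not overlap between diets, Bcl3 overlaps by fucose 4, and the high fucose libraries of Notch1 and Malat1 are numbers 1, 2 and 6.

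The other genes with the smallest unadjusted p that were lower on fucose were Zbtb11os1, Prdm8, Klhl21, Med31, Nat6, Clpp, Fam212a and Tshb. Their log2 fold changes lay between -1.01 for Tshb and -0.27 for Clpp, and their unadjusted p-values between 0.000965 and 0.00198. Tshb, the beta chain of thyrotropin, had 39.0 to 94.5 normalized counts on the control diet and 23.5 to 37.3 on fucose. Clpp, a protease of the mitochondrial matrix, had 2378 to 2749 on the control diet and 1868 to 2304 on fucose. Several of these genes share exon bases with a neighbour, Nat6 60.9% with Hyal1, Zbtb11os1 36.2% with Zbtb11, Prdm8 29.1%, Med31 26.3% and Klhl21 20.5%, so they may share reads with these neighbours. Gstm6, a glutathione transferase with close relatives, also did not overlap between diets, at 518.2 to 660.6 normalized counts on the control diet and 410.6 to 495.3 on fucose.

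The 12 genes with the smallest unadjusted p that were higher on fucose were Hip1, Fv1, Sec61a2, Tmc4, Lrrtm3, Adgrl2, Malat1, Baalc, Zmiz1, Oprd1, Plcg1 and Tacc1. Their log2 fold changes lay between 0.21 for Tacc1 and 1.13 for Fv1, a restriction factor for retroviruses with few reads. Oprd1, the delta opioid receptor, had 103.7, 158.6 and 245.8 normalized counts on the control diet and 158.1, 294.7 and 391.3 on fucose, for a log2 fold change of 0.73 (unadjusted p = 0.00472). Lrrtm3, a postsynaptic adhesion protein that binds neurexins, had 997.6 to 1177 on the control diet and 1176 to 1812 on fucose, so the diets overlapped only between 1176 and 1177. Sec61a2, a subunit of the channel that carries proteins into the endoplasmic reticulum, did not overlap, with 510.8 to 830.6 on the control diet and 834.9 to 1165 on fucose, though 19.9% of its exon bases lie opposite Nudt5. Oprd1 had 0.48 (unadjusted p = 0.0731) and Sec61a2 had 0.24 (unadjusted p = 0.0493) with the length index as a covariate.

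Malat1, a long nuclear RNA (chr19:5795690-5802672, minus strand), had 4710, 4887 and 5061 normalized counts on the control diet and 4847, 6037 and 7670 on fucose. The 6 control libraries lay close together, and fucose 6, 1 and 2 were high. With the length index as a covariate the log2 fold change of Malat1 was 0.15 in place of 0.31, with 0.24 for Baalc, 0.16 for Zmiz1 and 0.13 for Plcg1. Of the 12 genes named as higher, 7 kept an unadjusted p under 0.05 with this covariate, against 12 of the 12 named as lower. All were picked for their limma p in these libraries, 0.00101 to 0.00508 for the higher genes and 0.000309 to 0.00198 for the lower. The counts therefore start from unlike p-values, cannot be compared with each other and are not independent evidence. Pcdha12, Tmem175 and Armc9 had diets that did not overlap either, with log2 fold changes of 0.88, 0.15 and 0.18, but Pcdha12 shares 53.6% of its exon bases with Pcdha7 and Tmem175 shares 35.3% with Dgkq. Pcdha12 had 0.46 with the length index (unadjusted p = 0.16).

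The transcripts that mark amyloid-associated microglia had log2 fold changes on both sides of 0, with a wide spread between libraries. Of 22 genes 8 had positive and 14 negative log2 fold changes, the median was -0.11, 0 were called, and 11 intervals lay within 1.5-fold. Cst7, a protease inhibitor that microglia switch on around plaques, had 1842, 2648 and 3848 normalized counts on the control diet and 1239, 2681 and 4613 on fucose. Its fucose libraries reached both below and above all control libraries, and the fold was 1.00 with an interval of 0.646 to 1.56. Clec7a, a lectin receptor of the same cells, had a fold of 0.911 with an interval of 0.607 to 1.37, with fucose 1 the lowest library by far. In this list limma gave an unadjusted p under 0.05 to Lpl and Lgals3, described above, to Cd63, a late endosomal tetraspanin, at -0.25 (limma, unadjusted p = 0.0197), and to Axl, a receptor for dying cells, at 0.19 (unadjusted p = 0.0394). Leaving out each library in turn gave list medians between -0.19 and -0.03, and the length index as a covariate gave -0.006. With that covariate Cd63 had -0.08 (unadjusted p = 0.348) and Axl had 0.12 (unadjusted p = 0.199).

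Homeostatic microglia genes had a median of -0.038 over 13 genes, with P2ry12 at -0.04, Tmem119 at -0.08, Cx3cr1 at 0.01 and Csf1r at 0.13. Slc2a5, the fructose transporter, which microglia express in brain (chr4:150119283-150144169, plus strand), was the exception at an unadjusted p under 0.05. It had 63.1, 93.9 and 235.1 normalized counts on the control diet and 40.3, 61.9 and 84.8 on fucose. Control 3 and control 6 were high, at 235.1 and 212.8, control 1 lay between them and the fucose libraries, and the other 3 control libraries lay within the fucose range. The log2 fold change was -0.86 ± 0.315 (SE; limma, unadjusted p = 0.0136), with a range of -1.02 to -0.65 when each library was left out in turn. With the length index as a covariate Slc2a5 had -0.92 (unadjusted p = 0.028).

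Complement genes had a median of -0.074 over 13 genes, with C1qc, a chain of the starter C1q, at -0.25 (unadjusted p = 0.049). All 24 lysosomal genes had intervals within 1.5-fold, with a median of 0.004. Reactive astrocyte genes had a median of -0.063 over 20 genes. Gfap, the intermediate filament of reactive astrocytes, had 75833, 79090 and 103542 normalized counts on the control diet and 62704, 76474 and 102646 on fucose, with a fold of 0.952 and an interval of 0.808 to 1.12. Ggta1, a galactosyltransferase of this list, had -0.35 (unadjusted p = 0.0316). Class I presentation and interferon genes had a median of 0.035 over 22 genes, with Psmb10, a subunit of the immunoproteasome, at -0.26 (unadjusted p = 0.0267). C1qc had -0.03 (unadjusted p = 0.758) and Psmb10 had -0.05 (unadjusted p = 0.551) with the length index as a covariate. Ggta1 had -0.39 (unadjusted p = 0.0419) with this covariate.

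Synaptic transcripts were also close to 0, and their intervals were narrow. Of the 15 ionotropic glutamate receptor genes 14 had intervals within 1.5-fold, with a median of 0.019. The 7 metabotropic receptor genes all did, with a median of 0.098, and so did 20 of 22 postsynaptic scaffold and kinase genes, 23 of 25 vesicle release genes and 10 of 12 GABA-A receptor genes, with medians of 0.015, 0.055 and 0.056. With the length index as a covariate the metabotropic median was -0.049, the GABA-A median was -0.046 and the ionotropic median was -0.035, so their signs were not stable. Shank2, a postsynaptic scaffold, had 0.24 (unadjusted p = 0.0395), and Homer3, another scaffold, which shares 25.4% of its exon bases with Ddx49, had -0.34 (unadjusted p = 0.048). Syt2, a calcium sensor of fast release, had 0.41 (unadjusted p = 0.0403), and Vamp2, the main vesicle SNARE, had -0.17 (unadjusted p = 0.0488). The same covariate gave 0.04 for Shank2 (unadjusted p = 0.645) and -0.02 for Vamp2 (unadjusted p = 0.704). It gave -0.34 for Homer3 (unadjusted p = 0.111) and 0.46 for Syt2 (unadjusted p = 0.0692). With the striatal and thalamic-hypothalamic scores as covariates Homer3 had -0.17 (unadjusted p = 0.167) and Syt2 had 0.21 (unadjusted p = 0.0293). Among these lists no gene was called, and 4 of 81 genes (4.94%) were at an unadjusted p under 0.05, against 6.76% of all tested genes.

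Immediate-early genes, which neurons switch on within minutes of activity, had mostly negative log2 fold changes with a wide spread between libraries. Of 17 genes 16 were below 0 with a median of -0.401, 0 were called, and 0 were at an unadjusted p under 0.05. Arc, a regulator of AMPA receptor uptake (chr15:74669083-74672570, minus strand), had 2420, 9436 and 11893 normalized counts on the control diet and 1670, 4538 and 16382 on fucose. Control 2 was nearly as low as fucose 1, 4 and 6, and the highest Arc level of all was in fucose 5. The log2 fold change of Arc was -0.79 ± 0.66 (SE; limma, unadjusted p = 0.26), and that of Junb, a subunit of AP-1, was -0.60 ± 0.502 (unadjusted p = 0.26). Fos, another subunit of AP-1, had 328.9, 1766 and 3140 normalized counts on the control diet and 422.8, 1107 and 2192 on fucose. The mean log2 level of the list had an SD within diets of 0.689, more than the median difference. The list median was -0.62 without control 2, -0.19 without control 5, -0.04 with the regional scores as covariates and -0.11 with the length index. With these covariates Arc had -0.39 and -0.46, Fos had -0.12 and -0.12, and Junb had -0.33 and -0.11.

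The promoters of this list were looked up because members of the list were low together in the same libraries. The RefSeq table (GRCm38.p6) gave 17 promoters for 13 of the 17 genes, 5 of them for Egr2. The core of a cyclic AMP response element, TGACG, was searched on both strands from 250 bases before to 50 bases after the start site. It occurred in 13 of the 17 promoters, from 11 genes, and in 20.8% of the 32851 promoters of the table. Some promoters of Egr2 overlap, so they repeat the same matches. A CArG box, CC and GG around a run of A or T, was searched as well. Among the 17 promoters it occurred only in those of Egr2, and it occurred in 1.63% of the table. Egr1, Egr3, Arc and Ier2 had no promoter to search, and bases outside the window were not searched. Genes of the list may therefore hold CArG boxes that were not seen. The full element TGACGTCA, which holds the core on both strands, occurred in 2 of the 17, those of Dusp1 and Btg2, and in 1.79% of the table. A match of letters is a description and not a site. The promoters of Fos (chr12:85473640-85473939, plus strand), Npas4 (chr19:4989922-4990221, minus strand) and Nr4a1 (chr15:101266596-101266895, plus strand) are given 5′ to 3′ as examples of genes whose counts follow. Matches are in capitals, as CGTCA where the match is on the other strand.
Fos: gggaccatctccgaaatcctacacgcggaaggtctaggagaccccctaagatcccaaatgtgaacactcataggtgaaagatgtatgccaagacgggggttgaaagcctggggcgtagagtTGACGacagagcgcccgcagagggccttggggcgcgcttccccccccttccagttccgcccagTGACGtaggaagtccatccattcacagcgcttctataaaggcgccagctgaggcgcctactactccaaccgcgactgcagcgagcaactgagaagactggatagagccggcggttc
Npas4: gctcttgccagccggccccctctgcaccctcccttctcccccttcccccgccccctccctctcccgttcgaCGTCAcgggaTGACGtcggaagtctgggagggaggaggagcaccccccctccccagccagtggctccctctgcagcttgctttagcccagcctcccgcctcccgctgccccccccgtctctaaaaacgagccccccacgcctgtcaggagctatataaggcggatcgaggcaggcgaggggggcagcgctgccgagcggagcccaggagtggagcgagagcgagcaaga
Nr4a1: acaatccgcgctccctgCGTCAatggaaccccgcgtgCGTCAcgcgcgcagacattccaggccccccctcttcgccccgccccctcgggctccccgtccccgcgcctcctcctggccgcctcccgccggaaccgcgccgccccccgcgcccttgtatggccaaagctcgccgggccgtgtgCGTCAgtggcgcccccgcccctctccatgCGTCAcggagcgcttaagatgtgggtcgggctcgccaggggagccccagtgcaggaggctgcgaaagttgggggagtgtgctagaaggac
Fos and Npas4 hold 2 matches each and Nr4a1 holds 4. Nr4a1, a nuclear receptor, had 1891, 5664 and 7122 normalized counts on the control diet and 1270, 3194 and 8970 on fucose. Npas4, a transcription factor of excited neurons, had 287.8, 608.1 and 1128 on the control diet and 362.1, 550.7 and 1048 on fucose. For both, control 2 and fucose 6 were the lowest libraries of their diets, and the diets overlapped.

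**Figure D3:**
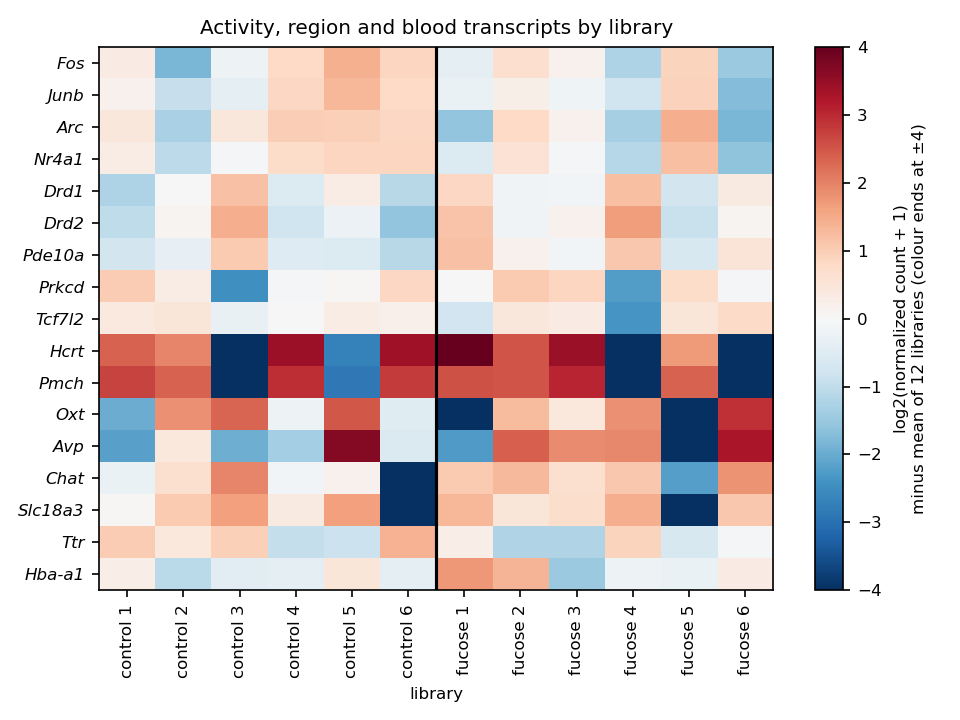
Level of 17 transcripts of activity, region and blood in the 12 libraries, as log2(normalized count + 1) minus the mean of the 12 libraries (colour, ends at ±4); the black line separates the diets. Fos, Junb, Arc and Nr4a1 are low together in control 2, fucose 4 and fucose 6, and Chat and Slc18a3 are low in control 6 and fucose 5.

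Most ribosomal protein and respiratory chain transcripts had small negative log2 fold changes. Of 77 cytosolic ribosomal protein genes 74 had negative log2 fold changes, with a median of -0.195, 0 called and 21 at an unadjusted p under 0.05, against 3.76% of all tested genes in that direction. Of 70 nuclear respiratory chain genes 66 had negative values, with a median of -0.185, 0 called and 24 at an unadjusted p under 0.05. Rpl18, of the large ribosomal subunit, had 6822, 7520 and 10112 normalized counts on the control diet and 5431, 6509 and 7680 on fucose, with a log2 fold change of -0.26 (limma, unadjusted p = 0.0184), and control 5 was the highest. Ribosomal protein genes have many near-identical pseudogene copies, so their counts are less certain than those of single-copy genes. Ndufc2, of respiratory complex I, had 3914, 4266 and 5266 on the control diet and 3091, 3685 and 4216 on fucose, with a log2 fold change of -0.25 (unadjusted p = 0.0116). Rpl18 had -0.06 (unadjusted p = 0.44) and Ndufc2 had -0.12 (unadjusted p = 0.182) with the length index described next as a covariate. The 13 transcripts of the mitochondrial genome had a median of -0.067, and of 0.082 with that index.

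These values moved with transcript length over all genes. Among 15253 tested protein-coding genes in 10 groups by exon length, the median log2 fold change ran from -0.159 in the shortest group, of up to 1741 bases, to 0.071 in the longest, of at least 9827 bases. In the shortest group 12 genes were higher and 222 lower at an unadjusted p under 0.05, and in the longest 112 were higher and 5 lower. Of the 147 ribosomal and respiratory genes 72 were in the shortest group, and without these genes the median of that group was -0.153. A length index for each library, the median deviation of the shortest group minus that of the longest, was -0.01 to 0.34 on the control diet and -0.47 to 0.17 on fucose. It was highest in control 5 and lowest in fucose 6 and fucose 2.

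With this index as a covariate, an alternative chosen after seeing the data, the ribosomal median was 0.003 and the respiratory median was -0.012. Without control 5, fucose 2 and fucose 6, the 3 libraries farthest from 0 on the index, they were -0.008 and -0.022, and the medians of the shortest and longest groups were -0.024 and 0.010. The count of genes at an unadjusted p under 0.05 was then 426, against 1226 with all libraries, with 0 called. The index was made from the same libraries, and its shortest group holds 72 of the 147 ribosomal and respiratory genes. A flatter trend with length, and ribosomal and respiratory medians nearer 0, therefore follow in part from how the index is built and are not independent of it. In fucose 1, 2, 3 and 6 the index was lower than in every control library. For any gene given with this covariate, the adjustment may therefore remove part of a difference between the diets. The part of RNA quality or library preparation in the index was not tested.

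**Figure D4:**
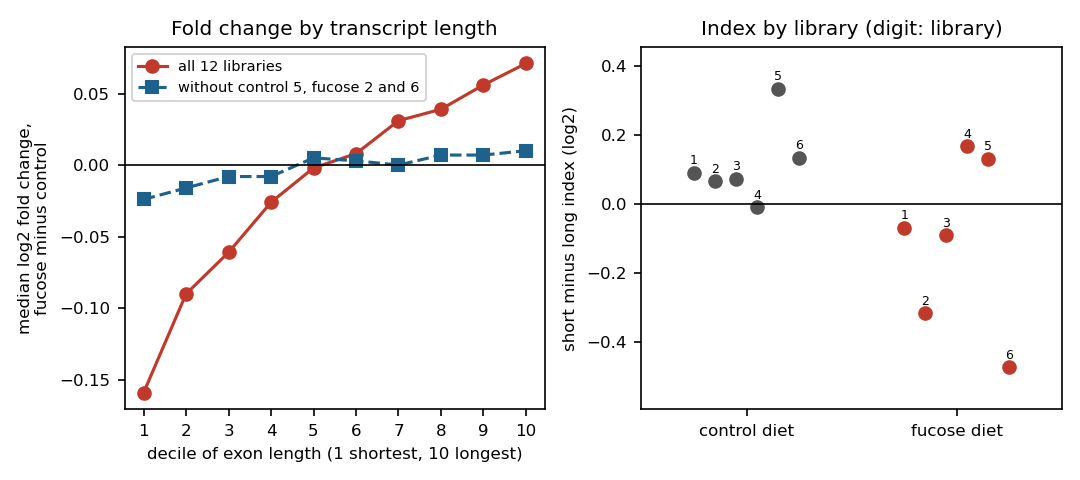
Left, median log2 fold change (fucose minus control diet) of protein-coding genes in 10 groups of exon length, with all 12 libraries and without 3 of them; right, the short minus long index (log2) of each library, numbered, by diet. The median runs from -0.159 to 0.071 with all libraries and from -0.024 to 0.010 without control 5, fucose 2 and fucose 6.

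Genes of lipid and sugar metabolism had medians near the median of all genes. Cholesterol synthesis genes had a median of -0.087 over 22 genes, with 3 lower at an unadjusted p under 0.05, against 3.76% of all tested genes in that direction: Mvk and Lss, enzymes of the mevalonate and sterol parts of the route, at -0.23 and -0.25, and Mvd at -0.36. Adjusted for the length index they were -0.09 (unadjusted p = 0.329), -0.24 (unadjusted p = 0.064) and -0.15 (unadjusted p = 0.404). Glycolysis and hexose entry genes had a median of -0.058 over 19 genes, and of 0.030 with the length index as a covariate. Eno1, an enolase with near-identical copies that may share its reads, had 26833, 28916 and 44200 normalized counts on the control diet and 21268, 24294 and 27800 on fucose. Control 6 and control 3 were high for Eno1, and the log2 fold change was -0.35 ± 0.106 (SE; limma, unadjusted p = 0.00401), with a range of -0.39 to -0.25 when each library was left out in turn. Eno1 had -0.24 with the length index (limma, unadjusted p = 0.0625) and -0.31 with the regional scores (unadjusted p = 0.00568).

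Markers of oligodendrocyte precursors and newly committed cells had a median of 0.152 over 12 genes, with 0 called and 3 higher at an unadjusted p under 0.05, against 2.99% of all tested genes in that direction, and a median of 0.073 with the length index as a covariate. Bmp4, a growth factor of committed precursors, had 69.8, 102.7 and 133.4 normalized counts on the control diet and 108.3, 146.9 and 182.5 on fucose. The diets overlapped, and the log2 fold change was 0.57 ± 0.207 (SE; limma, unadjusted p = 0.0126). Neu4, a sialidase, had 0.39 (unadjusted p = 0.0297) and Tnr, tenascin-R, had 0.25 (unadjusted p = 0.0364). Pdgfra, the defining receptor of precursors, had 0.13 (unadjusted p = 0.287). Over the whole list 8 log2 fold changes were positive and 4 negative, with a range of -0.15 to 0.57. With that index Bmp4 had 0.62 (limma, unadjusted p = 0.0219) and Neu4 had 0.48 (unadjusted p = 0.023). Tnr had 0.04 (unadjusted p = 0.65) and Pdgfra had 0.002 with it. Mature myelin genes had a median of -0.028 over 12 genes, with Mobp at 0.11 and Mog at -0.14.

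**Figure D5:**
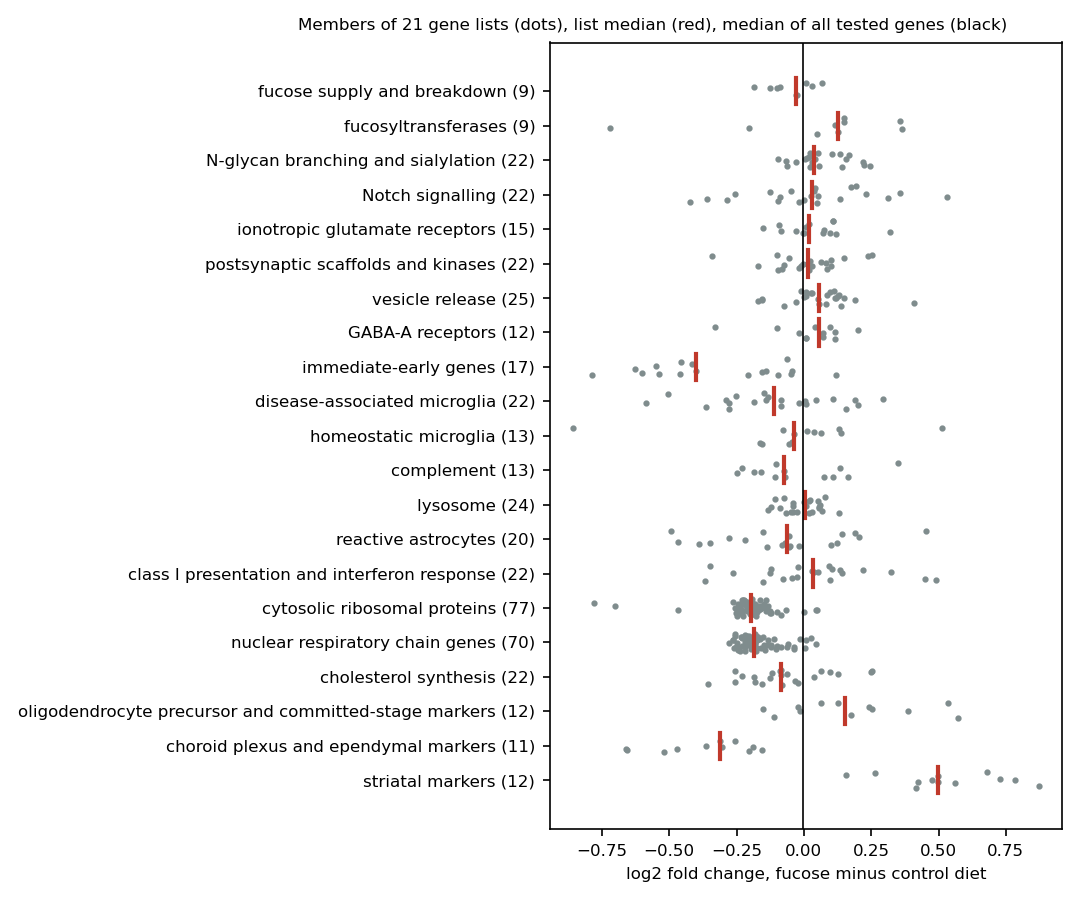
Log2 fold change (fucose minus control diet, horizontal axis) of the tested members of 21 gene lists, with the number of members in brackets; each grey dot is 1 gene, the red bar is the list median and the black line is the median of all tested genes. Most list medians lie near the black line, and those of the immediate-early, choroid plexus and striatal lists lie farther from it.

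Neuropeptide genes had a median of 0.002 over 15 genes, and of 0.231 with the length index as a covariate. Pdyn, prodynorphin, had 793.6, 1350 and 2161 normalized counts on the control diet and 1233, 2033 and 3067 on fucose, with a log2 fold change of 0.64 (limma, unadjusted p = 0.041). Pdyn is also abundant in striatum, and with the striatal and thalamic-hypothalamic scores as covariates its value was 0.36 (unadjusted p = 0.00537). Adjusted for the length index, Pdyn had 0.64 (limma, unadjusted p = 0.096). Cck, cholecystokinin, had -0.25 (unadjusted p = 0.0441), and -0.12 with the length index (unadjusted p = 0.348). Clock genes had a median of 0.032 over 15 genes, with Npas2 at 0.27 (unadjusted p = 0.0235), and heat shock genes had 0.063 over 16. Npas2 had 0.22 with the length index (limma, unadjusted p = 0.107).

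Striatal, thalamic-hypothalamic and choroid plexus markers varied between libraries of the same diet by more than between diets. All 12 striatal markers had positive log2 fold changes, with a median of 0.498, but 0 were called, 0 were at an unadjusted p under 0.05, and the mean log2 level of the list had an SD within diets of 0.818. The list median was 0.260 without control 6 and 0.796 without control 3. Drd2, the D2 dopamine receptor of striatal neurons, had 219.9, 468.6 and 1799 normalized counts on the control diet and 350.6, 719.1 and 2078 on fucose. Control 3 and fucose 4 and 1 were high, and control 6 was lowest. Prkcd, a kinase of thalamic neurons, was low in control 3, at 1121, and in fucose 4, at 1301, where the other libraries had at least 5832. Choroid plexus and ependymal markers were all 11 below 0, with a median of -0.311, 0 called and an SD within diets of 0.736. That median was -0.556 without control 5 and -0.176 without fucose 2. Ttr, transthyretin of the choroid plexus, ranged from 25958 to 130617 normalized counts on the control diet and from 21461 to 91276 on fucose.

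Some transcripts of small nuclei were near 0 in single libraries of both diets. Hcrt, the orexin precursor of the lateral hypothalamus, had 0 to 5844 normalized counts on the control diet and 7.15 to 9068 on fucose. Pmch, which marks neighbouring neurons, was at 4.94 in control 3, 38.6 in control 5, 0 in fucose 4 and 10.3 in fucose 6, and at least 1466 elsewhere, but 58.1% of its exon bases lie opposite Parpbp. Chat and Slc18a3, of cholinergic neurons, were at 0 and 1.77 in control 6 and at 13.8 and 4.91 in fucose 5. Gh, growth hormone of the pituitary, had 0 to 52.6 on the control diet and 0 to 274.2 on fucose. These markers were high and low in libraries of both diets, and their part in the values of other genes was not tested beyond the covariates given above.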

How the data were processed

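Poly(A) RNA of 5xFAD brain was measured in 6 libraries per diet. Per the submitters' processing notes, the authors used the mm10 build with DESeq2 2.11.40.8, featureCounts 2.0.3, HISAT2 2.2.1 and Trimmomatic 0.39, whose roles are not stated. Neither the gene annotation nor strand use in counting is stated, so overlapping genes may share reads. In the deposited table the signal is a normalized count, for which the authors divided each gene count by the size factor of its library. All values (100%) were whole multiples of the smallest positive value of their column within 0.001 reads, so whole reads were recovered. Starts in the table were converted to 1-based coordinates, and a symbol with several identifiers was taken at the one with most reads. Exon lengths and shared exon bases come from GENCODE M21, which holds 48058 of the 48440 identifiers. The replicate numbers are not stated to pair libraries, and the reported test does not pair them.

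Low genes were removed with filterByExpr (edgeR 4.0.16) and a minimum count of 10 on the recovered reads. The reported test is limma 3.58.1 in R 4.3.3 on log2(normalized count + 1), with a mean-variance trend and robust moderation, over the 12 libraries, two-sided, with Benjamini-Hochberg adjustment over 18146 genes and a threshold of 0.05. Scripts were tested on simulated data. Alternatives were other pseudocounts, filters and scalings, edgeR, DESeq2 1.42.0 and voom on the recovered reads, a replicate block, leaving out each library, and 3 covariate or library choices made after seeing the data.

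The genes named are the 12 higher and 12 lower with the smallest unadjusted p, all fucose-handling genes, the 2 members of every other list with the smallest p, the 12 with the widest spread within diets, up to 5 per direction whose diets do not overlap with the widest gap, and chosen markers; predicted and sex-linked genes and genes under 1 CPM were left out of rankings. The comparison, lists and rule were chosen with earlier results of these data known. Tnfaip3, Axl, Cd63, Drd2, Prkcd, Nr4a1, Hba-a1 and Xist were named after their values were seen, as were list members given beside those that the rule takes. A few genes selected by this rule are not reported here.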

Additional observations from a re-analysis of the deposited data

Results flagged for a closer look

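Within a diet, 1 library lay far from the other 5 for 21 of 312 sets of 6 values examined on the log2 scale. About 1 in 20 independent sets, or 15.6 here, would do so by chance. The sets include genes named for a wide spread or after their values were seen, so this rate is only a rough guide. Chat and Slc18a3 were low at 0 and 1.77 normalized counts in control 6 and at 13.75 and 4.91 in fucose 5. Prkcd was low at 1121 in control 3 and at 1301 in fucose 4. Xist was low at 6.60 in control 5 and at 0 in fucose 5. Clpp at 2749, Fuom at 1067 and Rpl18 at 10112 were high in control 5, and App was low there at 49607. Lpl was high at 1885 in control 6, Pde10a was high at 5593 in control 3, Arc was low at 2420 in control 2 and Nagk was low at 1795 in control 1. Among fucose libraries, Fam212a at 67.4, Barhl1 at 0 and Clec7a at 224.4 were low in fucose 1, Armc9 was high at 1319 in fucose 2 and Gabra5 was low at 1125 in fucose 4.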

How the results depend on the processing

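Under all 28 alternatives run, 3 of them chosen after seeing the data, 0 genes were called. The count of genes at an unadjusted p under 0.05 was 1226 as reported, ran from 700 to 1828 when each library was left out, with 700 both without control 5 and without fucose 2, and was 421 with the length index as a covariate and 426 without control 5, fucose 2 and fucose 6. The replicate numbers were shared by the diets, and whether they pair libraries is not stated. Same-numbered libraries had correlations of -0.18 to 0.0948, and 2 of 6 numbers matched best with themselves. Correlations over all genes could miss a weak pairing, so they do not decide the question. The fit with a replicate block called 0 genes and had 1368 at an unadjusted p under 0.05.

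Of 135 genes followed through the alternatives, those the naming rule takes and list members given with a fold change, 115 had 1 sign throughout. Fut10, at 0.049 as reported, had -0.082 with DESeq2 and with edgeR and RLE factors, -0.081 with TMM and -0.261 without both libraries with little Xist. P2ry12 had 0.004 with TMM and 0.002 with RLE factors and with DESeq2. With the length index as a covariate the values were -0.015 for Fpgt, -0.042 for Fuca2, -0.047 for Fut10, -0.094 for Cx3cr1, 0.063 for Tmem119, 0.003 for Slc17a7, 0.005 for C1qb, 0.016 for Vtn, 0.020 for Thy1, 0.026 for Mog, 0.040 for Tsta3, 0.049 for Fuom and 0.257 for Npas4. With the regional scores Npas4 had 0.113, P2ry12 had 0.001 and Cx3cr1 had -0.013. Without control 5, fucose 2 and fucose 6 they were -0.004 for Grm7, -0.007 for Fpgt, -0.029 for Fuca2, -0.220 for Fut10, -0.114 for Cx3cr1, 0.026 for Tmem119, 0.007 for Mog, 0.014 for Gmds, 0.017 for Thy1, 0.032 for Tsta3, 0.050 for Fuom and 0.189 for Npas4. Leaving out each library gave ranges of -0.22 to 0.13 for Clec7a, -0.16 to 0.22 for Cst7, -0.031 to 0.056 for Fpgt, -0.06 to 0.008 for Fuk, -0.22 to 0.20 for Fut10, -0.14 to 0.001 for Gfap, -0.10 to 0.044 for Gmds, -0.094 to 0.111 for P2ry12, -0.144 to 0.011 for Tmem119, -0.065 to 0.167 for Cx3cr1 and -0.26 to 0.13 for Npas4. The cause of these sign changes was not tested. Depth limits Fut1, Fut2, Fut4 and Fut7, which had at most 71.7 normalized counts in any library.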

Other observations

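Vascular and barrier markers had list medians near 0, with 0.042 over 12 endothelial genes and -0.001 over 8 pericyte and smooth muscle genes. Cdh5, the cadherin of endothelial junctions, had 329.8 to 508.1 normalized counts on the control diet and 483.4 to 545.3 on fucose, for a log2 fold change of 0.23 (limma, unadjusted p = 0.0614). Meningeal fibroblast markers had a median of 0.204 over 10 genes, which was 0.019 with DESeq2 and 0.070 without control 3, with Col3a1, a fibrillar collagen, at 0.49 (limma, unadjusted p = 0.0494). Col3a1 had 0.36 with the length index as a covariate (limma, unadjusted p = 0.199). Astrocyte markers had a median of 0.072 over 10 genes, and pyramidal neuron markers of cortex and hippocampus had 0.045 over 12.

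Red cell and neutrophil markers had positive log2 fold changes in all 6 tested genes, with a median of 0.563, 0 called and an SD of the list mean within diets of 0.900. That median was 0.252 without fucose 1 and 0.861 without fucose 3. Hba-a1, an alpha globin with a near-identical copy, had 2427, 3910 and 7028 normalized counts as lowest, median and highest on the control diet and 1821, 5430 and 16796 on fucose, with fucose 1 and fucose 2 high. Among mitochondrial transcripts mt-Co3, a subunit of cytochrome oxidase, had 19536 normalized counts in control 2 and 3069 to 8464 in the other 11 libraries. The leading principal components held 14.7%, 13.3%, 10.8% and 10.2% of the variance.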
